A study of Homo sapiens with 15 samples.

Results

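The mRNAs of 8 proteins that bind or respond to double-stranded RNA (dsRNA) were followed from cytosolic extract into pelleted condensates. They were EIF2AK2, PRKRA, IFIH1, MAVS, OAS1, OAS3, ADAR and DICER1. The list was given by name, each gene identifier was matched to its symbol, and a member was kept when at least 2 replicates of each group held at least 10 counts. All 8 were found among the 57500 genes of the files and all 8 passed, so none was too low. The same filter left 16612 genes in all.

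The extracts came from U2OS cells, a human osteosarcoma line, and poly(A) RNA was sequenced. The labels give the genotype as wild type, whereas the study's text speaks of condensates of YFP-G3BP1, a tagged stress granule protein, so whether the cells carried this transgene is uncertain. Input was extract that was not pelleted. The other groups were pellets spun at 14000 g for 10 min after a translation reaction of 2 h at 37 °C. Mock reactions received no addition, dsRNA reactions 250 nM dsRNA, silvestrol reactions 2 µg/ml silvestrol (an inhibitor of the translation initiation factor eIF4A), and PEG reactions 1% PEG (a molecular crowder). Each of the 5 groups held 3 biological replicates (15 libraries in all). Input differs from every pellet in centrifugation, and from the dsRNA, silvestrol and PEG pellets also in treatment. The reaction of 2 h at 37 °C is recorded for the pellets only, mock included. These differences cannot be told apart in a comparison with input.

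Long dsRNA is a sign of viral infection. PKR, the product of EIF2AK2, binds it and phosphorylates eIF2α, which lowers translation initiation and leads to stress granules, while MDA5 (IFIH1) passes the signal through MAVS at mitochondria to interferon genes. OAS enzymes make 2′-5′ oligoadenylates that activate RNase L, ADAR edits adenosines in dsRNA and limits its detection, and DICER1 cuts dsRNA precursors of microRNAs. PACT, the product of PRKRA, activates PKR and also associates with DICER1.

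Libraries held between 15341973 and 46939993 counts (median 35584710), and PEG pellets had the lowest median, 25485069. Of the osteoblast lineage genes, RUNX2 was at 45.3 to 78.5 CPM (counts scaled to library size, here with TMM normalisation) and COL1A1, SPARC and ALPL were present, while COL1A2, SP7, BGLAP and IBSP were too low for the filter. The hepatocyte gene ALB had at most 2 counts. EPCAM, an epithelial gene, was nevertheless present at 4.96 to 18.1 CPM, highest in PEG. Of the nuclear-retained RNAs in these cytosolic preparations, MALAT1 was at 197 to 769 CPM and highest in PEG, and NEAT1 was at 262 to 1350 CPM and lowest in PEG. Whether nuclear RNA had a part in the PEG values was not tested. Replicate 1 stood apart from replicates 2 and 3 in several groups, and values per library are therefore given.

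EIF2AK2 (ENSG00000055332) lies on the minus strand of chromosome 2 (GRCh38, 37099210 to 37157065). Its longest coding transcript has 10042 nt, of which 8066 nt are 3′ untranslated. PRKRA (ENSG00000180228) lies at 178431414 to 178451512 and IFIH1 (ENSG00000115267) at 162267079 to 162318703, on the minus strand of the same chromosome. OAS1 (ENSG00000089127, 112906777 to 112933222) and OAS3 (ENSG00000111331, 112938352 to 112973249) are neighbours on the plus strand of chromosome 12. MAVS (ENSG00000088888) is at 3846799 to 3876123 on chromosome 20, plus strand, ADAR (ENSG00000160710) at 154582062 to 154627999 on chromosome 1, minus strand, and DICER1 (ENSG00000100697) at 95086228 to 95158010 on chromosome 14, minus strand. All counts were over merged exons, which overlap genes on the opposite strand by at most 3.73% of a member's length, and the strand setting of the counting was not given in the sources used here.

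Several members are interferon-induced genes, whose promoters hold interferon response elements built from GAAA half-sites. RefSeq promoter windows (GRCh38.p14, 250 bases before to 50 after a start) were found for all 8, and were searched on both strands for a pair of GAAA half-sites separated by 1 or 2 bases, where matches could overlap. Such a pair was in 4 of the 8 members, EIF2AK2, OAS1, OAS3 and IFIH1, and in 6.4% of all 35116 windows. The first count is of genes and the share is of windows, and some members have several windows, so they are not the same measure. Stretches of 60 bases around the first match are shown so that the matched letters and their place can be compared between these 4 genes. No interferon response was measured here. They are printed on the strand of the gene, with the matched letters in capitals.
EIF2AK2, chr2:37156952-37157011, minus strand: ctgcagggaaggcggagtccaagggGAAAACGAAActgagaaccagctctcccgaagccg
OAS1, chr12:112906919-112906978, plus strand: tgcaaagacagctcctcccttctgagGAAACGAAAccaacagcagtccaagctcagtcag
OAS3, chr12:112938300-112938359, plus strand: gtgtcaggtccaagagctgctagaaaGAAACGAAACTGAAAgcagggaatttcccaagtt
IFIH1, chr2:162318809-162318868, minus strand: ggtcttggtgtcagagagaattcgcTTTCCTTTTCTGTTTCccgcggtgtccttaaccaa
The windows of OAS3 and IFIH1 held 3 matches each. In IFIH1 the first match is on the opposite strand. The match begins 6 bases before the start of EIF2AK2 and 17 before that of OAS1. Relative to the start, the first match begins at -148 in OAS3 and at -159 in IFIH1. These letters describe the windows and are not evidence of binding, and the windows of MAVS, ADAR, DICER1 and PRKRA held no such pair.

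Levels per length were compared in input, as CPM per kb of merged exon. ADAR was highest at 32.5 ± 1.67 (SD, n = 3), followed by PRKRA at 18.9 ± 1.78. EIF2AK2 at 12.8 ± 2.81 and MAVS at 10.5 ± 0.45 came next and did not differ beyond their spread. OAS3 at 6.01 ± 0.43 and DICER1 at 5.99 ± 0.71 did not differ either. IFIH1 at 2.78 ± 0.39 and OAS1 at 1.15 ± 0.26 were the lowest. ADAR thus lay at the 91.2nd percentile and OAS1 at the 23rd percentile of all kept genes. With the length of the longest transcript in place of merged exons, PRKRA at 40.3 CPM per kb was level with ADAR at 38.2, so the order of these 2 mRNAs depends on the length used.

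**Figure D1:**
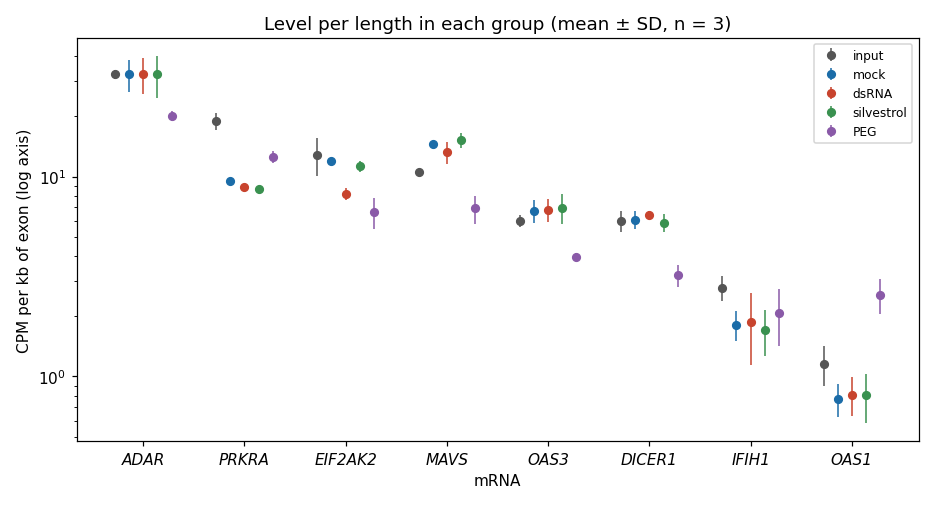
CPM per kb of merged exon (log axis) for each mRNA in the 5 groups, as mean ± SD of 3 libraries, ordered by the level in input. ADAR is highest and OAS1 lowest in input, and OAS1 is the mRNA whose PEG value lies above its other values.

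**Figure D2:**
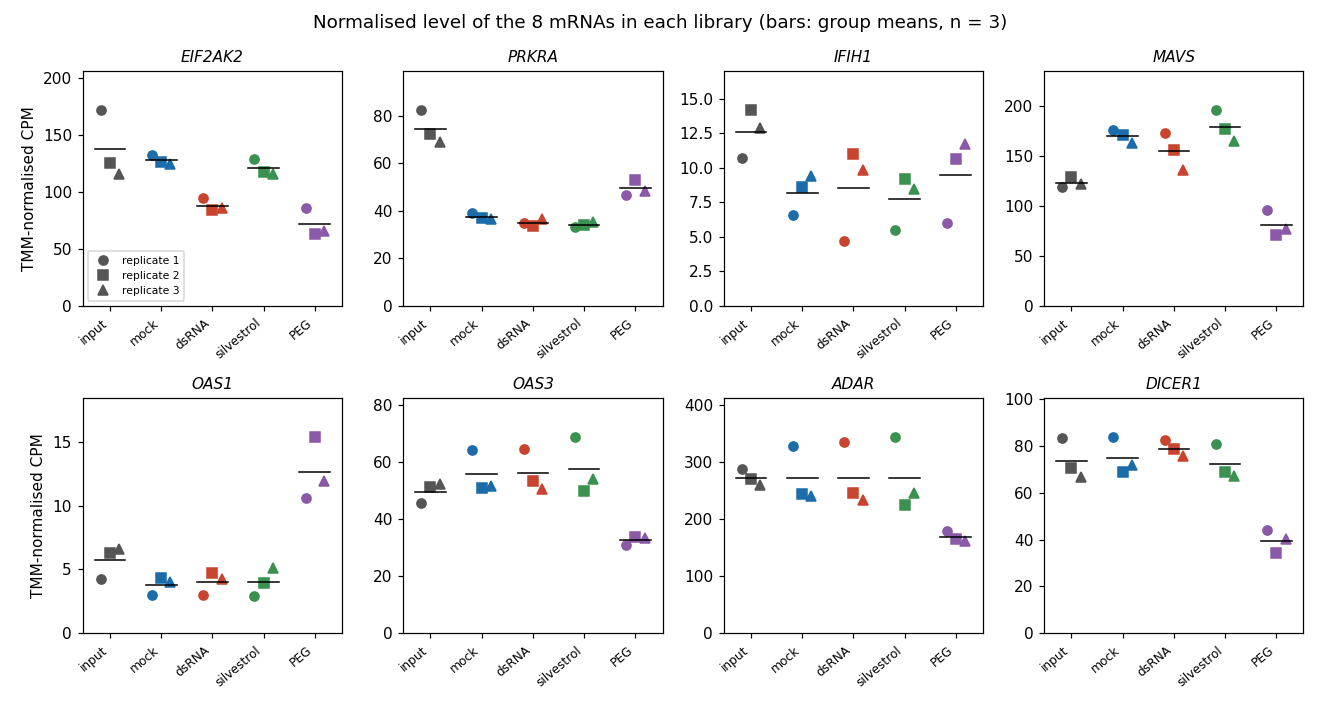
TMM-normalised CPM (axis from 0) of each mRNA in each of the 15 libraries, with the marker giving the replicate number and the bar the group mean. PEG points lie below all others for ADAR, OAS3, MAVS and DICER1 and above all others for OAS1, and dsRNA points of EIF2AK2 lie below those of mock and silvestrol.

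The first question was whether mRNAs of dsRNA sensors were enriched in, or depleted from, each condensate pellet over input. In mock pellets MAVS was enriched and PRKRA and IFIH1 were depleted, 1 member higher and 2 lower, beside 17.6% of all genes called higher and 15.8% called lower (edgeR quasi-likelihood test, adjusted p under 0.05). In dsRNA pellets MAVS was enriched and PRKRA and EIF2AK2 were depleted, beside 21.1% of all genes higher and 19.6% lower. In silvestrol pellets MAVS was enriched and PRKRA and IFIH1 depleted, beside 19.4% higher and 18.1% lower. These 3 comparisons share the input libraries and are not independent of each other.

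PKR's mRNA, EIF2AK2, was at 172.3, 125.4 and 115.8 CPM in input replicates 1 to 3, and at 132.9, 126.4 and 124.9 in mock. In dsRNA pellets it was at 95.03, 83.9 and 85.9 CPM, below every input and mock library. Of all genes, 55.3% showed no overlap with input and 6.61% none with mock, in either direction. In silvestrol pellets EIF2AK2 was at 129.5, 117.5 and 115.8 CPM, overlapping input. EIF2AK2 fell by 0.60 on the log2 scale in dsRNA pellets over input (SE 0.17, edgeR adjusted p = 0.0231), while the differences were -0.07 in mock and -0.16 in silvestrol (edgeR adjusted p = 0.761 and 0.483). Without the block, the fall over input lost its call when the GC content of genes was modelled (-0.30, edgeR adjusted p = 0.124), or without dsRNA replicate 2 or 3 (adjusted p of up to 0.0811). With the block and the GC model together it passed (-0.30, edgeR adjusted p = 0.0028). In mock over input the GC model turned the value to 0.18, which together with the replicate block passed the threshold (edgeR adjusted p = 0.0401).

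PRKRA, which encodes the PKR activator PACT, was the most depleted member in these 3 pellets. It was at 82.4, 72.2 and 69.0 CPM in input and at 39.0, 37.0 and 36.7 in mock, 34.8, 33.6 and 36.4 in dsRNA, and 33.3, 33.9 and 35.2 in silvestrol. No library of these pellets reached the lowest input library. No overlap with input, in either direction, was also seen for 50.1%, 55.3% and 53.5% of all genes in mock, dsRNA and silvestrol. PRKRA fell by 0.95 in mock, 1.05 in dsRNA and 1.09 in silvestrol on the log2 scale (SE 0.11, 0.12 and 0.11, edgeR adjusted p = 0.00358, 0.00244 and 0.00244). It kept its call in these 3 comparisons whichever library was left out, and with the GC model, where it was smaller (-0.72, -0.76 and -0.81).

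MAVS, the adaptor of MDA5, was the member that rose. It was at 118.7, 129.1 and 122.3 CPM in input, at 176.4, 171.3 and 163.6 in mock, at 173.6, 156.5 and 136.0 in dsRNA and at 196.3, 177.6 and 165.1 in silvestrol. Every library of these pellets was above every input library. Of all genes, 50.1%, 55.3% and 53.5% also showed no overlap with input in mock, dsRNA and silvestrol, in either direction. MAVS was enriched by 0.50 in mock, 0.37 in dsRNA and 0.57 in silvestrol on the log2 scale (SE 0.10, 0.13 and 0.12, edgeR adjusted p = 0.0102, 0.0489 and 0.00791). The call in dsRNA pellets lay at the threshold and was lost whichever of the 6 libraries was left out (adjusted p = 0.0556 to 0.146), and that in mock was lost without input replicate 3.

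IFIH1, which encodes the sensor MDA5, had fewer counts, with medians of 215 to 464 per group. It was at 10.7, 14.2 and 12.8 CPM in input, 6.61, 8.59 and 9.39 in mock, 4.68, 10.96 and 9.85 in dsRNA and 5.48, 9.20 and 8.48 in silvestrol. The differences were -0.59 in mock, -0.53 in dsRNA and -0.67 in silvestrol (SE 0.18, 0.30 and 0.22, edgeR adjusted p = 0.0402, 0.187 and 0.0405). With the replicate number as a block, the dsRNA value also passed (-0.57, edgeR adjusted p = 0.0131). The mock and silvestrol calls were each lost in 5 of 6 fits that left out 1 library and with the GC model (-0.39 and -0.46, adjusted p = 0.167 and 0.156). Scaling by library size only also ended both calls (-0.53 and -0.62, edgeR adjusted p = 0.0748 and 0.0701). With the block and the GC model together they passed (-0.39 and -0.46, edgeR adjusted p = 0.00348 and 0.00291), and the dsRNA value did not (-0.32, adjusted p = 0.0513).

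OAS1, the smaller oligoadenylate synthetase, was at 4.22, 6.25 and 6.64 CPM in input and 2.99, 4.35 and 4.05 in mock, 3.03, 4.72 and 4.28 in dsRNA and 2.92, 3.97 and 5.13 in silvestrol. In each replicate number the pellet was below its input, although the groups overlapped. The differences of -0.56, -0.47 and -0.48 did not pass without the block (edgeR adjusted p = 0.0994, 0.149 and 0.177) and passed with it (-0.55, -0.46 and -0.48, adjusted p = 0.00166, 0.0125 and 0.00957).

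The remaining members, OAS3, ADAR and DICER1, did not pass the threshold in mock, dsRNA or silvestrol pellets. OAS3 ranged from 45.5 to 52.1 CPM in input and from 49.8 to 68.7 CPM in these 9 pellets, with differences of 0.20, 0.22 and 0.25. ADAR differed by 0.03, 0.04 and 0.03, with 95% confidence intervals that reached from -0.37 to 0.43. In replicate 1 ADAR was at 327.8 to 343.0 CPM in these pellets, and in replicates 2 and 3 at 224.1 to 245.8, so that replicate 1 lay above and the others below every input library (259.0 to 286.6). DICER1 differed by 0.06, 0.14 and 0.01, and the GC model moved these values to 0.30, 0.44 and 0.29, of which the dsRNA value passed (edgeR adjusted p = 0.0142). With the replicate block added to the GC model, DICER1 passed in all 3 pellets (0.29, 0.43 and 0.29, edgeR adjusted p = 0.00236, 0.000307 and 0.0101).

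**Figure D3:**
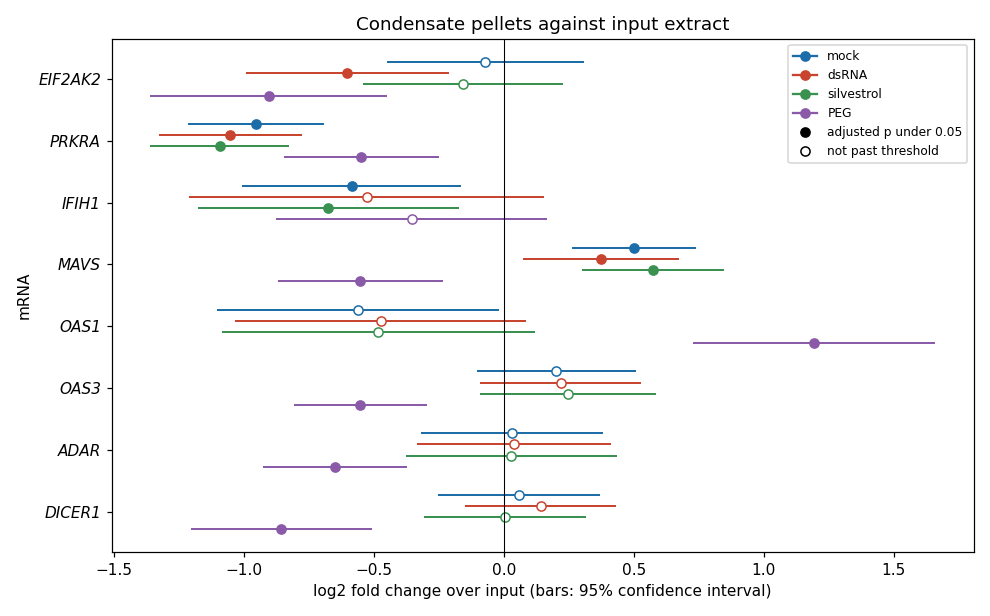
Log2 fold change over input of each mRNA in mock, dsRNA, silvestrol and PEG pellets, with 95% confidence intervals, where filled points passed an edgeR adjusted p under 0.05. MAVS lies above 0 in mock, dsRNA and silvestrol and below 0 in PEG, and OAS1 lies above 0 in PEG.

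PEG pellets differed from input in 7 of the 8 members. OAS1 was higher, beside 25.5% of all genes, and EIF2AK2, DICER1, ADAR, OAS3, MAVS and PRKRA were lower, beside 25.9% of all genes (edgeR, adjusted p under 0.05). The median of the 8 members was -0.55 on the log2 scale, against -0.01 for all kept genes. Of all calls 49.5% were higher. With scaling by library size only, this share was 25.3%, the median of all genes was -0.36, and 55.5% of all genes were called. All 8 members were then called, OAS1 still higher.

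OAS1 was at 10.6, 15.4 and 11.98 CPM in PEG, and its lowest PEG library was above its highest input library, 6.64. PEG and input libraries did not overlap, in either direction, for 61.7% of all genes. OAS1 rose by 1.19 on the log2 scale, 2.29-fold (SE 0.20, edgeR adjusted p = 0.00162). EIF2AK2 was at 86.2, 63.1 and 65.7 CPM in PEG and fell by 0.91 (SE 0.20, edgeR adjusted p = 0.00537). DICER1 was at 44.0, 34.1 and 40.4 CPM in PEG, against 83.4, 70.6 and 66.9 in input, and fell by 0.86 (SE 0.15, edgeR adjusted p = 0.00197). ADAR, at 178.1, 163.9 and 161.2 CPM in PEG, fell by 0.65 (SE 0.12, edgeR adjusted p = 0.00236).

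OAS3, the larger synthetase, went the other way from its neighbour OAS1. It was at 31.0, 33.6 and 33.5 CPM in PEG, below its lowest input library of 45.5 (61.7% of all genes did not overlap). OAS3 fell by 0.55 (SE 0.11, edgeR adjusted p = 0.00347). MAVS was at 96.1, 71.0 and 77.3 CPM and also fell by 0.55 (SE 0.14, edgeR adjusted p = 0.00951). PRKRA, at 46.7, 53.2 and 48.5 CPM, fell by 0.55 (SE 0.13, edgeR adjusted p = 0.00743), and with the GC model its value was -0.19 and did not pass (adjusted p = 0.189). IFIH1, at 6.01, 10.6 and 11.7 CPM, differed by -0.35 and overlapped input (edgeR adjusted p = 0.221).

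Pellets were then compared directly. Between PEG and mock pellets 7 members differed, OAS1 and PRKRA higher beside 31.3% of all genes, and MAVS, DICER1, EIF2AK2, OAS3 and ADAR lower beside 32.2% (edgeR, adjusted p under 0.05). For each of these 7 members the 3 PEG libraries did not overlap the 3 mock libraries, as held for 69.6% of all genes. OAS1 rose by 1.82 on the log2 scale, 3.52-fold (SE 0.20), and MAVS fell by 0.99 (SE 0.14). DICER1 fell by 0.85, EIF2AK2 by 0.77, OAS3 by 0.70 and ADAR by 0.62. PRKRA was higher by 0.47 with TMM scaling, while with library size only its value was 0.00 and did not pass (edgeR adjusted p = 0.991). Of all calls 49.3% were higher with TMM and 27.4% with library size only, where the median of all genes was -0.50. OAS1 kept its rise, and the 5 lower members their fall, under that scaling.

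The comparison of dsRNA with mock pellets asks which mRNAs differ when dsRNA is added. The series held no pellet with single-stranded RNA, so an effect of dsRNA cannot be told apart from one of added RNA. In the fit without a replicate block edgeR called 0% of all genes, with 374 genes at an unadjusted p under 0.05, and DESeq2 called 64. EIF2AK2 had the largest difference among the members. Its dsRNA libraries (83.9 to 95.03 CPM) lay below all mock libraries (124.9 to 132.9 CPM), a gap without overlap that 6.61% of all genes showed in either direction. The difference was -0.54 on the log2 scale, 0.69 times the mock level (SE 0.09, 95% confidence interval -0.75 to -0.32, unadjusted p = 0.000518 in the edgeR fit across all genes, edgeR adjusted p = 0.469), and by unadjusted p EIF2AK2 ranked 17 of 16612 genes.

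A replicate block takes same-numbered libraries as pairs, and whether they were pairs was not tested. With the replicate number as a block EIF2AK2 passed (-0.54, edgeR adjusted p = 2.66e-08). It was then among 441 genes called lower, 2.65% of all genes, while 25 were called higher. The log2 ratio of dsRNA to mock was -0.48, -0.59 and -0.54 in replicates 1, 2 and 3. DESeq2 without a block also called EIF2AK2 lower (-0.53, DESeq2 adjusted p = 4.33e-05), and so did the block with the GC model (-0.49, edgeR adjusted p = 1.51e-07). Without the block it did not pass with the GC model (-0.48, edgeR adjusted p = 0.815) or library size only (-0.55, edgeR adjusted p = 0.306). EIF2AK2 was also not among the 23 genes edgeR called without the filter, or the 15 called with all 5 groups in 1 fit. No other member was called with the block. PRKRA did not overlap between dsRNA and mock pellets either (-0.11, 95% confidence interval -0.31 to 0.10), nor between silvestrol and mock pellets (-0.14, 95% confidence interval -0.33 to 0.05), where 3.43% of all genes did not overlap.

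Against silvestrol pellets, which were also made under repressed translation initiation, EIF2AK2 was again lower with dsRNA. No library overlapped, as for 5.48% of all genes, and the difference was -0.45 (SE 0.09, edgeR adjusted p = 0.605). Here too edgeR called 0% of all genes without the block, with 330 at an unadjusted p under 0.05, and DESeq2 called 68, EIF2AK2 among them (DESeq2 adjusted p = 0.00292). EIF2AK2 was not among the 13 genes that edgeR called without the filter, or the 8 called with all 5 groups in 1 fit. With the block EIF2AK2 passed (-0.45, edgeR adjusted p = 3.52e-07), and MAVS passed as well (-0.21, edgeR adjusted p = 0.0159), beside 2.49% of all genes called lower. The ratios of EIF2AK2 were -0.45, -0.49 and -0.43 in replicates 1, 2 and 3. The mock and silvestrol comparisons share the dsRNA libraries.

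No member was called between silvestrol and mock pellets. Called genes were 0% of all without the block, with 35 at an unadjusted p under 0.05 in edgeR and 0 calls in DESeq2. EIF2AK2 differed by -0.08 (95% confidence interval -0.29 to 0.13), so that a fall as large as its value in dsRNA against mock lay outside this interval. For IFIH1 and OAS1, at low counts, the intervals were wider, from -0.63 to 0.46 and from -0.51 to 0.67.

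**Figure D4:**
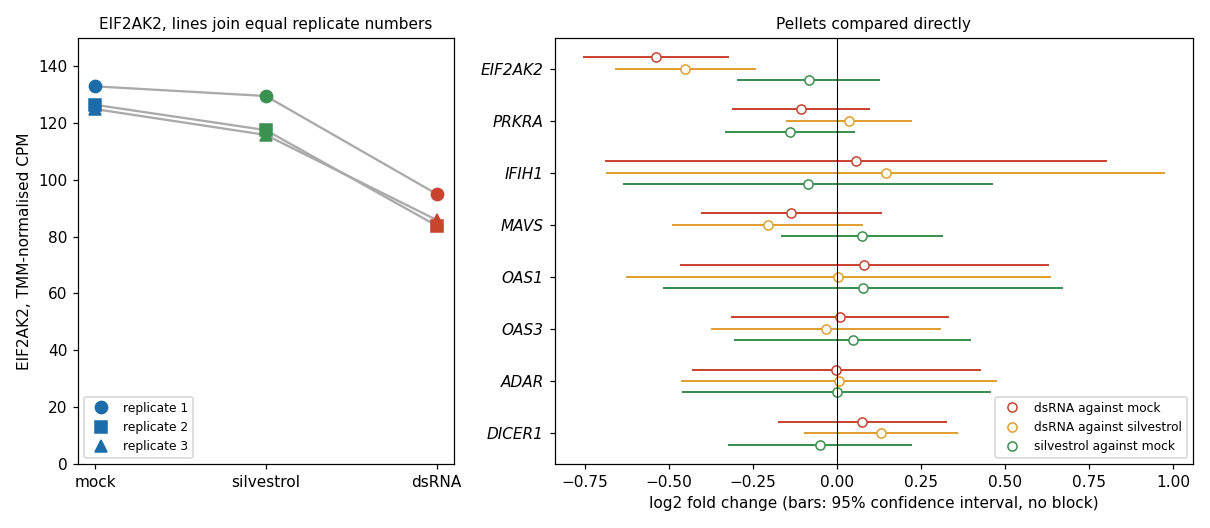
Left, EIF2AK2 in TMM-normalised CPM in mock, silvestrol and dsRNA pellets, with lines joining equal replicate numbers. Right, log2 fold changes of all 8 mRNAs between these pellets with 95% confidence intervals from the fit without a block, where the EIF2AK2 intervals against mock (-0.75 to -0.32) and silvestrol (-0.66 to -0.24) do not reach 0. The intervals are not adjusted for the number of genes, and neither difference passed in that fit (edgeR adjusted p = 0.469 and 0.605).

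Genes whose levels over the 15 libraries were most like those of each member were found by the root-mean-square (RMS) difference of log2 CPM, each gene centred on its own mean. EIF2AK2 was closest to TRIM37 (RMS 0.10) and SLC25A15 (RMS 0.11), where the median over all genes was 0.55. The nearest genes lie below such a median by selection, so the gap is no evidence of a shared behaviour. ADAR was closest to ZNFX1 and TTL, OAS3 to RANBP10 and USP22, and DICER1 to ZSWIM6 and ARFGEF1. PRKRA was closest to RHOA and KDELR2, OAS1 to SSR2 and TMEM205, and IFIH1 to RFK and ADGRL4, the last at 0.18 and 0.20. Among members, ADAR and OAS3 were the most alike (RMS 0.13), though each was closer to genes that were not members. ADAR was at RMS 0.05 from ZNFX1, and OAS3 at RMS 0.06 from RANBP10.

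Related genes of the pathway were described from lists, to be read beside 21.1% of all genes called higher and 19.6% lower in dsRNA pellets over input, and 25.5% and 25.9% in PEG, with medians of all genes near 0. Shares of a list near these are no result about the list. Of 13 mRNAs of other proteins with a dsRNA-binding domain, 2 were called higher and 5 lower in dsRNA pellets over input, from STAU1 (-0.81), a Staufen RNA transport protein, to SON (0.76), a splicing cofactor. In PEG 2 of the 13 were higher and 8 lower, with a median of -0.48, from STAU1 (-0.76) to the mitochondrial ribosomal protein MRPL44 (0.92). Of 17 RNA sensing and signalling mRNAs 12 were kept, and DHX58, TLR3, OAS2, ZBP1 and IRF7 were too low. In dsRNA pellets 3 of these 12 were higher and 1 lower, from the ubiquitin ligase TRAF6 (-0.69) to the mitochondrial protein NLRX1 (0.96), and in PEG 2 were higher and 2 lower, from ZNFX1 (-0.60) to IRF3 (0.87), the transcription factor downstream of MAVS.

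A list of 9 mRNAs held those of eIF2, its other kinases, phosphatase subunits and DNAJC3. Of these, 3 were higher and 2 lower in dsRNA pellets over input. They ran from EIF2S1 (-1.14), which encodes the eIF2α subunit that PKR phosphorylates, to PPP1R15A (0.95), a subunit that directs its dephosphorylation. In PEG 2 were higher and 3 lower, from EIF2AK1 (-0.84) to EIF2S2 (1.19). Of 8 mRNAs of microRNA pathway partners of DICER1, 2 were higher and 0 lower in dsRNA pellets, TNRC6A (0.47) and TNRC6C (0.55). In PEG 7 of the 8 were lower and none higher, with a median of -0.66, from AGO4 (-0.78) to the exporter XPO5 (-0.37). Of 26 interferon-response mRNAs 23 were kept, with 2 higher and 4 lower in dsRNA pellets, from DTX3L (-0.73) to IRF1 (0.54), and 7 higher and 7 lower in PEG, from SAMD9 (-1.12) to BST2 (1.76). In dsRNA against mock, edgeR without the block called 0 genes of these 5 lists and 0% of all genes. Values of the listed mRNAs there ranged from XPO5 (-0.49, SE 0.10) to the interferon-response mRNA IFI6 (0.27). XPO5 was at -0.46 in dsRNA against silvestrol and at -0.02 in silvestrol against mock.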

How the data were processed

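Poly(A)-selected RNA of input extract and of mock, dsRNA, silvestrol and PEG pellets was sequenced. The authors deposited 1 table of raw, unnormalised gene counts per library. The submitters' processing notes name Trimmomatic 0.36, STAR 2.5.2b, featureCounts and Subread 1.5.2 with GRCh38. Exons and gene coordinates came with the deposited counts. Symbols came from a list of gene names, and from GENCODE release 29 on GRCh38 where that list gave none. Transcript lengths, untranslated parts and GC content came from release 29. In it 56898 of 57500 identifiers were found, 54784 with the same ends, and among the members the ends of ADAR differed.

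After the study's methods, a gene was kept if 2 or more replicates of every group had 10 or more counts for it. Counts were normalised by TMM and tested on the 6 libraries of each comparison by the quasi-likelihood F test of edgeR 4.0.16 (R 4.3.3), with Benjamini-Hochberg adjustment over 16612 genes and a threshold of 0.05. The study names DESeq2, and DESeq2 1.42.0 was run as an alternative. Other alternatives were DESeq2 size factors in edgeR, library size only, no filter, all 5 groups in 1 fit, and the replicate number as a block. Further ones were an offset for GC content, the block with that offset, each library left out, and lengths of single transcripts. The offset was a loess on GC in each library (span 0.3) of each gene's log2 CPM less its mean over the libraries in the fit. It can therefore take up differences between groups that follow GC content. With 3 libraries against 3 an exact permutation p cannot fall below 0.1.

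The replicate numbers come from the labels. Deviations from group means of same-numbered libraries were correlated at 0.131 to 0.861, above 0.1 in every pair. In the block, libraries were treated as paired by number. Libraries of different numbers were not compared in this way, and replicate 1 stood apart in several groups. The correlations therefore cannot show that the numbers mark true pairs. In data simulated after dsRNA against mock with a replicate effect, on 16612 genes, the block recovered 142 of 200 genes given a log2 change of 0.5 (5 other calls), against 0 without it. The simulated effect was shared by same-numbered libraries, which is what the block models. The simulation therefore cannot decide whether the real libraries were paired. No pair of replicates agreed within sampling noise.

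Named genes were the 8 members, for each the 2 genes most like it (for MAVS not reported here), and from each list the highest and lowest called gene in dsRNA and in PEG over input. Members and lists were chosen with earlier results of these data known. Promoter sequences are from RefSeq. Figures were drawn with matplotlib 3.10.9.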

Additional observations from a re-analysis of the deposited data

Results flagged for a closer look

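The difference from input was not the same in PEG and mock pellets for 7 members, by the direct edgeR test of PEG against mock (adjusted p under 0.05, log2 scale), which called 63.6% of all genes. OAS1 (1.82) and PRKRA (0.47) were higher in PEG, while MAVS (-0.99), DICER1 (-0.85), EIF2AK2 (-0.77), OAS3 (-0.70) and ADAR (-0.62) were lower. MAVS was the member called in opposite directions over the shared input libraries, enriched by 0.50 in mock and at -0.55 in PEG. Groups of 3 libraries were too small for a test of single outlying libraries.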

How the results depend on the processing

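With the replicate block, members called rose from 3 to 5 in dsRNA and from 3 to 4 in mock and in silvestrol against input, while the share of all genes called rose from 40.7% to 60.1%, 33.4% to 62.6% and 37.5% to 59.4%. They rose from 0 to 1 in dsRNA against mock and from 0 to 2 in dsRNA against silvestrol, beside 2.81% and 2.73% of all genes. The block changed no call other than those of EIF2AK2, OAS1, IFIH1 and MAVS given with the results. With the block and the GC offset, 6 members were called in mock against input, beside 60.8% of all genes. In dsRNA and in silvestrol against input 5 were called, beside 61.8% and 58.2%. These settings called 1 member in dsRNA against mock and 2 in dsRNA against silvestrol, beside 3.41% and 3.03% of all genes. EIF2AK2 in mock against input turned from -0.07 to 0.18. DESeq2 called 1 member in dsRNA against mock and 1 in dsRNA against silvestrol, beside 0.385% and 0.409% of all genes. The cause of these changes was not tested. Leaving out 1 library gave 1 to 4 members in mock and 1 to 2 in dsRNA against input, beside 14.2% to 35.6% and 26.1% to 41.6% of all genes. The lowest member counts were without input replicate 3, and without dsRNA replicate 2 or 3. In silvestrol against input 2 to 3 were called (23.6% to 38.9% of all genes) and in PEG against input 7 (38.6% to 61.8%). In PEG against mock 7 to 8 were called (53.4% to 68.9% of all genes), and in the other direct comparisons 0 (0%). Of 896 alternative values of members, 841 stayed on the same side of the threshold, 31 lost and 23 gained a call, and 1 turned its direction. A further 73 changes of sign, counted within the 841, were of fold changes called in neither fit. OAS1 and IFIH1 had the fewest counts, as few as 80 in a library, which limits their precision. Calls over input that the GC offset without the block ended were those of IFIH1 in mock and silvestrol, EIF2AK2 in dsRNA and PRKRA in PEG.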
